A study of Homo sapiens with 5 samples.

Results

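The insulin-like growth factor (IGF) genes examined here were the ligand genes IGF1 and IGF2, the receptor gene IGF1R and the genes of the binding proteins IGFBP1 to IGFBP7, 10 genes in all out of 20033 protein-coding genes. TEAD4 peaks were assigned to a gene when their summit, the position of the highest signal within a peak, was in the gene body or within 50 kb of any transcription start site (TSS) of that gene in GENCODE release 44. By this rule, 30 different peaks out of 21113 belonged to these genes. They came from TEAD4 chromatin immunoprecipitation followed by sequencing (ChIP-seq) in LX-2 cells, a human hepatic stellate cell line used as a model of the myofibroblastic stellate cell (MF-HSC). Cells were grown in medium with fetal bovine serum, received the solvent DMSO and were cross-linked with formaldehyde. There were 3 biological replicates and 2 input samples, 1 of which served replicates 1 and 2 and the other replicate 3. The analysed list joins replicates 1 and 3, since the authors left out replicate 2 as not concordant enough. It holds no value per replicate, so no value given here has a replicate error, the sequencing depth behind it is unknown, and no test between conditions exists. All samples are of 1 cell line under 1 condition, and no RNA was analysed here, so neither the expression of these genes nor the markers of the cell type could be set beside the peaks.

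IGF1 and IGF2 are secreted peptides that activate the tyrosine kinase receptor encoded by IGF1R, which drives cell growth and survival. The IGFBPs are secreted proteins that hold the ligands in blood and tissue, prolong their lifetime and limit or deliver them to the receptor, and several of them also act in the extracellular matrix. Hepatocytes make most of the circulating IGF1, whereas stellate cells and other mesenchymal cells of the liver secrete binding proteins. TEAD4 is a DNA-binding protein that recognizes the sequence ACATTCC or close relatives and activates transcription together with YAP1, the coactivator restrained by the Hippo pathway.

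The sequences around the summits of the main peaks are given here on the plus strand of hg38. The first 6 are those of the assigned peaks with the TEAD motif ACATTCC within 100 bp of the summit that had the highest signal, and the last 2 are the strongest assigned peaks without it. Each run has 201 bases with the summit at base 101. Capitals mark ACATTCC or its reverse complement GGAATGT and the AP-1 motif (TGACTCA or TGAGTCA), and in the last 2 also the shorter core CATTCC or GGAATG.
IGFBP7, chr4:57081385-57081585: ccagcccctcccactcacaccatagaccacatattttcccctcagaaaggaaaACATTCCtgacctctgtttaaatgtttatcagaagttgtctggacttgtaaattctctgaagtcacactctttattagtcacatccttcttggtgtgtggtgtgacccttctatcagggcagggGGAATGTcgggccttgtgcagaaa
IGFBP7, chr4:57077584-57077784: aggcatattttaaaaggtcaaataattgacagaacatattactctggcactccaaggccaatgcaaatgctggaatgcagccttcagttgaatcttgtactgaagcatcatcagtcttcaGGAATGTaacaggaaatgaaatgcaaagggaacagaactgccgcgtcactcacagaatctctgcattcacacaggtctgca
IGFBP6, chr12:53048481-53048681: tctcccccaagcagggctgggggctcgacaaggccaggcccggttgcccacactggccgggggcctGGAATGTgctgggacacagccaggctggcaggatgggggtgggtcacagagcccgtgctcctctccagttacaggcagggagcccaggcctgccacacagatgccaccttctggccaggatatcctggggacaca
IGFBP5, chr2:216714472-216714672: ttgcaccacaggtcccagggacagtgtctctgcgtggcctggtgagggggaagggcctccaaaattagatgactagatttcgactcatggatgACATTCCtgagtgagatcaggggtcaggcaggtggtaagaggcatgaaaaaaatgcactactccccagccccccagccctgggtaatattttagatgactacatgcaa
IGFBP7, chr4:57023215-57023415: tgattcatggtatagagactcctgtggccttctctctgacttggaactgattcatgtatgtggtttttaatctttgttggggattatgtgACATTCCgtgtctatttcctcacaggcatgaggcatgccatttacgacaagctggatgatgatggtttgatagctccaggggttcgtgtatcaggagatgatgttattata
IGF2, chr11:2097658-2097858: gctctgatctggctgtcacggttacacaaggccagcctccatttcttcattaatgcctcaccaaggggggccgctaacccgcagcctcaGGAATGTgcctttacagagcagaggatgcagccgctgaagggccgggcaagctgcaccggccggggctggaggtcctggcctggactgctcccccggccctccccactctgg
IGF1R, chr15:98609676-98609876: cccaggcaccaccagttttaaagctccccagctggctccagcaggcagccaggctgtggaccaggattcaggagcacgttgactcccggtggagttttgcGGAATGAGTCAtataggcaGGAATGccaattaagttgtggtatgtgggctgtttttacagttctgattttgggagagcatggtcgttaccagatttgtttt
IGF1R, chr15:98727707-98727907: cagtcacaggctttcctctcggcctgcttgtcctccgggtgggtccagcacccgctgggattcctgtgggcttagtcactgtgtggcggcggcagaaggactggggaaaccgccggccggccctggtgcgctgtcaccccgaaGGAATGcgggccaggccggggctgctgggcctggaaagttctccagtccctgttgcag
The distance of the TEAD motif from the summit varied between these runs. Its centre lay 4 bp from the summit in the IGFBP5 peak, 7 bp in the IGFBP7 peak at chr4:57023215-57023415, 8 bp in the IGF2 peak, 23 bp in the IGFBP7 peak at chr4:57077584-57077784 and 31 bp in the IGFBP6 peak. The strongest IGFBP7 peak held 2 copies on opposite strands, centred 44 and 80 bp from its summit. The strongest IGF1R peak held no ACATTCC but had a CATTCC core whose last bases run into an AP-1 motif, and a further core just beyond it.

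TEAD4 peaks were found by the rule at 7 of the 10 genes, where 56.2% of all protein-coding genes had at least 1. IGFBP7 had 13 peaks, IGF1R 7, IGFBP6 4, IGF2, IGFBP4 and IGFBP5 2 each, and IGFBP2 1, which is also 1 of the 2 IGFBP5 peaks. IGF1, IGFBP1 and IGFBP3 had 0. The median was 2 peaks per gene, against 1 over all protein-coding genes, whose upper quartile was 2 and whose highest number was 32. A summit within 2500 bp of a TSS was found at 4 genes (IGF1R, IGFBP5, IGFBP6 and IGFBP7), compared with 16.6% of all protein-coding genes. A summit inside the gene body was found at 3 genes (IGF1R, IGFBP6 and IGFBP7), compared with 25% of all protein-coding genes. Of the 30 summits, 15 were in an intron and 1 in a UTR of the gene to which they were assigned, 8 were upstream and 6 downstream. For 25 of them the nearest TSS of a protein-coding gene was that of an IGF gene. The rule takes summits in or near these genes, so a high count is partly built in. No matching share over all genes is given for this count or for the positions.

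**Figure D1:**
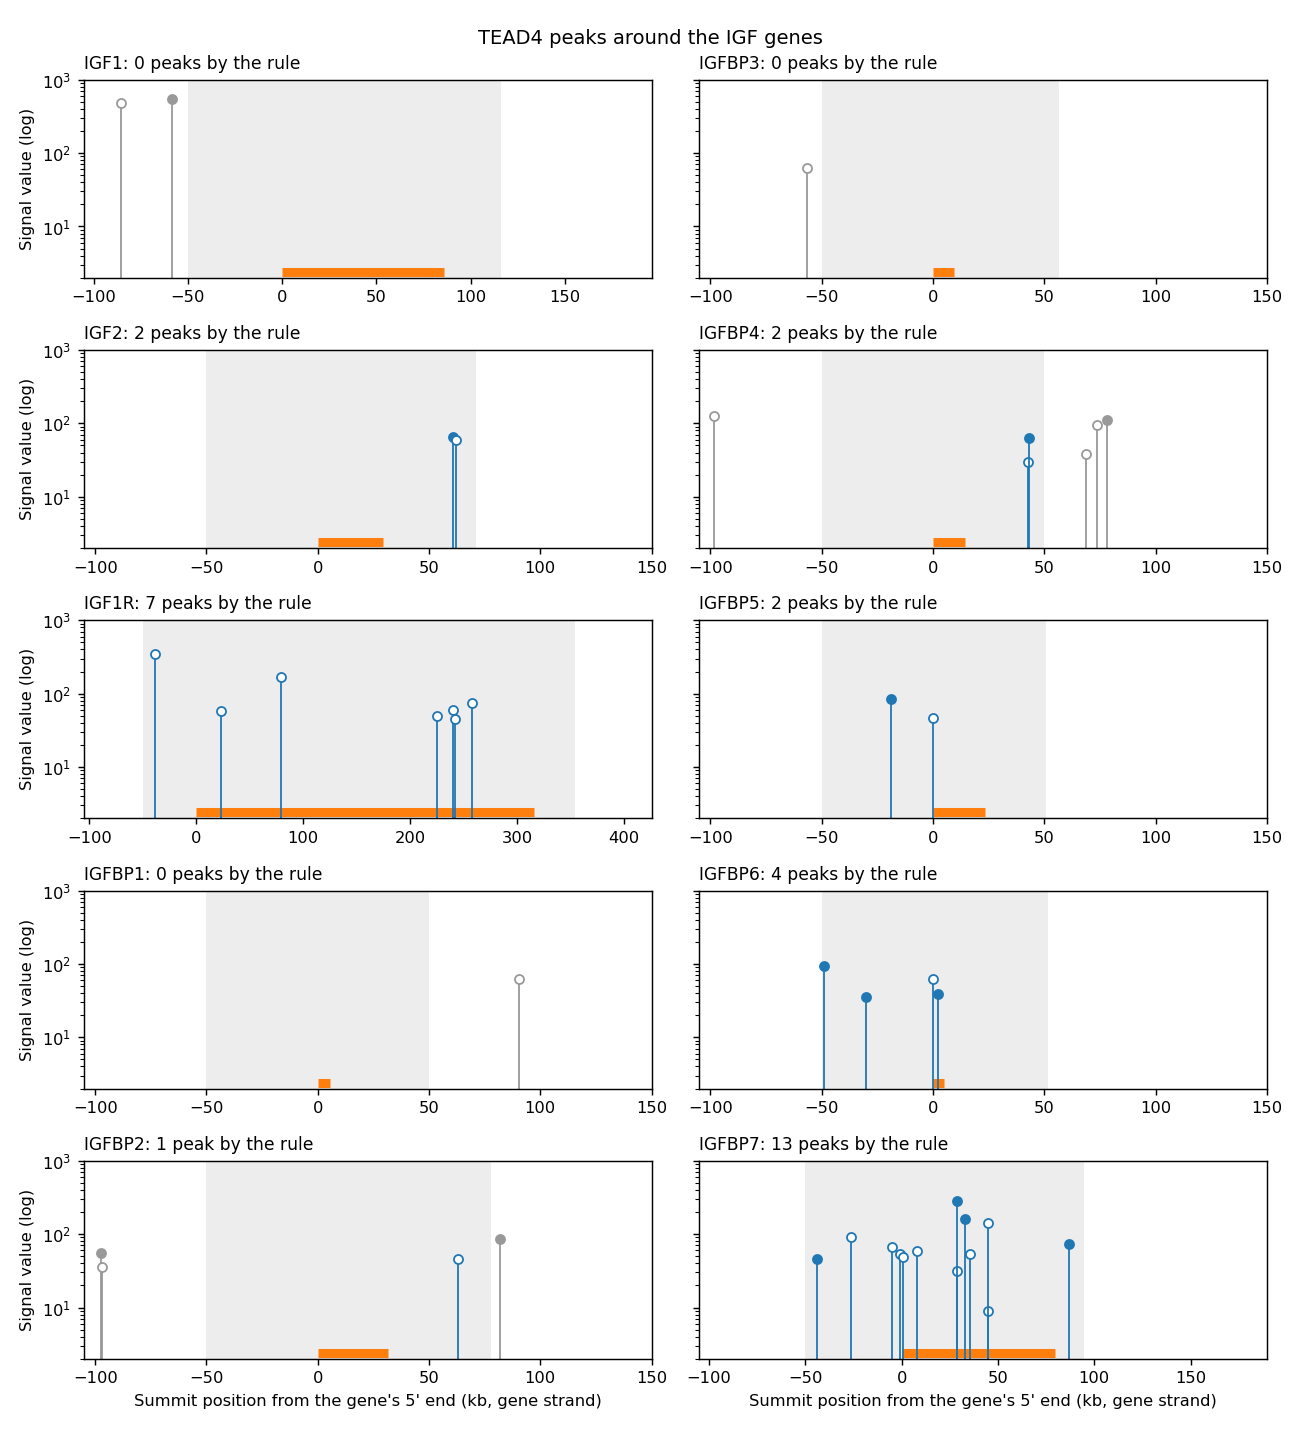
TEAD4 peaks around the 10 IGF genes, 1 panel per gene, with the position of each summit from the 5′ end of the gene in kb along the gene's strand (x axis) and the signal value on a log axis (y axis). Blue peaks are assigned by the rule, grey peaks lie within 100 kb but outside it, filled points hold the TEAD motif, the orange bar is the gene body and the grey band the searched window. IGFBP7 has 13 blue peaks, unevenly spaced from -44.1 to 87.1 kb. The IGF1 window holds none, with 2 strong grey peaks upstream of it.

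Long genes have longer windows, so the number of peaks was also divided by the length of the window. The median was 1.69 peaks per 100 kb over the 10 genes and 0.666 over all protein-coding genes, with an upper quartile of 1.55 for the latter. IGFBP7 had 8.98 peaks per 100 kb, and 27 of the 20033 protein-coding genes, IGFBP7 included, reached that density. Its 13 peaks include weaker summits in intervals that overlap stronger ones. Overlapping peaks were counted separately here, for IGFBP7 and for all other genes. IGFBP6 followed with 3.94, a density reached by 762 genes. IGF1R, whose window of 404 kb is the longest of the 10, had 1.73, close to IGF2 with 1.65. IGFBP4 had 2.00, IGFBP5 1.98 and IGFBP2 0.782. Without a replicate error, the close densities of IGF2, IGF1R, IGFBP4 and IGFBP5 cannot be put in order.

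The signal value is the strength the authors' pipeline gave to each peak, on a scale that the sources used here do not state. It is therefore used only to rank peaks inside the list. The 30 peaks had a median of 59.5 and ran from 8.95 to 348. The whole list had a median of 68.1, with quartiles of 46.1 and 114, and ran from 6.57 to 1074. The median at the IGF genes was thus somewhat below that of the list. Of the 30, 10 were above the list's median and 20 below it, 5 were above its upper quartile and 2 among its 1000 strongest. The order-statistic 95% interval of the members' median, from 49.1 to 73.9, contains the list's median, so no difference was detectable with 30 peaks. This interval takes peaks as independent, which neighbouring peaks are not. The score of the irreproducible discovery rate (IDR), which grades how well a peak repeats between replicates, had its highest value of 1000 in 25 of the 30 peaks, as in 76.1% of the list, and the lowest of the other 5 was 884. The −log10 q-value was at the list's highest value of 4.76 in 29 of the 30, as in 94.5% of the list.

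**Figure D2:**
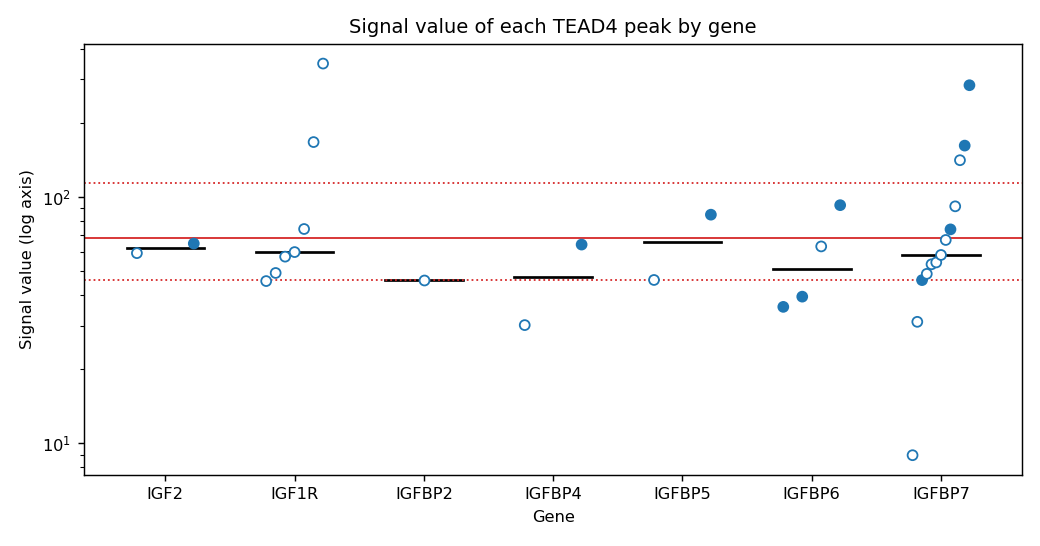
Signal value (log axis) of each assigned TEAD4 peak for the 7 genes with a peak, ordered by value within a gene, with filled points for peaks that hold the TEAD motif. Black bars are the median per gene and red lines the median (solid, 68.1) and quartiles (dotted, 46.1 and 114) of the whole list, and the strongest peaks are those of IGF1R (348) and IGFBP7 (284).

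Of the ligand genes, IGF1 (chr12:102395874-102481744, minus strand) had no peak in a window of 166 kb that takes in its gene body and 6 TSSs. IGF2 (chr11:2129112-2158391, minus strand), the growth factor of fetal tissues that is expressed from the paternal allele, had 2 peaks, neither of them in the gene. Both were downstream, with summits 31354 and 32897 bp past the gene's end and 39529 and 41072 bp from its nearest TSS, 1543 bp from each other. The nearer had a signal of 64.7 and held the TEAD motif shown above, and the other had 59.2 and no TEAD motif but a RUNX motif (TGTGGTT). Both were slightly below the list's median, no annotated gene covered either summit, and IGF2 was their nearest protein-coding gene.

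The receptor gene IGF1R (chr15:98648539-98964530, plus strand) had 7 peaks, of which 6 were in introns. The strongest of the 30 peaks at the IGF genes, with a signal of 348 and rank 475 in the list, was 38763 bp upstream of IGF1R and was the only one of the 7 outside the gene. The next, with 167 and rank 2735, was in an intron 79268 bp from the 5′ end. A peak of 57.2 was in an intron 23114 bp from the 5′ end. The remaining 4 formed a group between 225461 and 257626 bp from the 5′ end, with signals of 49.1, 59.7, 45.6 and 74.1 in that order. None of the 7 was within 2500 bp of the TSS of the canonical transcript, IGF1R-217, and the 3 that were near a TSS were near starts of shorter transcripts. Of these, 1 was 281 bp past the start of IGF1R-201, a transcript with no defined coding sequence, and the others 1351 and 130 bp before that of IGF1R-205. The last 2 also lie in an intron of a long non-coding RNA (lncRNA) gene, ENSG00000259621, on the opposite strand. IGF1R was the nearest protein-coding gene for all 7.

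No IGF1R peak held ACATTCC within 100 bp of the summit, among 7 peaks, where 23% of the list did. The shorter core CATTCC was in 3 of the 7, beside 46.8% of the list, and the AP-1 motif in 2, beside 25.4%. With 7 peaks, a difference from the list was not tested. In the upstream peak, core and AP-1 motif share 2 bases, which gives GGAATGAGTCA, read on the plus strand. The centre of this core is 2.5 bp from the summit and that of the AP-1 motif 7 bp. This joined sequence was picked after the peak had been seen, and it occurs within 100 bp of the summit in 46 of the 21113 peaks (0.218%), 5 of them among the 1000 strongest. The 46 and the 5 both include this IGF1R peak. The 46 had a median signal of 88.8, beside 68.1 over the list, and a difference was not tested.

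Among the binding protein genes, IGFBP1 (chr7:45888360-45893660, plus strand), which the liver produces under the control of insulin, and its neighbour IGFBP3 (chr7:45912245-45921874, minus strand), the main carrier of IGFs in blood, had no peak by the rule. The nearest summit to both was at 45978598, 56724 bp upstream of IGFBP3 and 90101 bp downstream of the IGFBP1 TSS, with a signal of 62.1. It was in the lncRNA gene ENSG00000237471.

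IGFBP2 (chr2:216632828-216664436, plus strand) and IGFBP5 (chr2:216672105-216695549, minus strand), which encodes a binding protein that attaches to extracellular matrix, are neighbours whose 3′ ends face each other. The only peak of IGFBP2 was 31233 bp past its end and belongs by position to IGFBP5, since the summit is 120 bp upstream of the IGFBP5 TSS. Its signal of 46.0 was just under the lower quartile of the list. The second IGFBP5 peak was 19023 bp upstream of the TSS, had a signal of 84.7 and held the TEAD motif centred 4 bp from its summit. Both summits are also in an intron of the lncRNA gene DIRC3-AS1 on the opposite strand.

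The peak at the IGFBP5 TSS had no ACATTCC within 100 bp of the summit, yet 1 copy stands just beyond that distance. The RefSeq promoter (GRCh38.p14, chr2:216695550-216695799, minus strand) is shown with it in capitals, written from 5′ to 3′ up to the base before the start, as this is the only IGF promoter of the table with both a summit and the TEAD motif in it.
IGFBP5 promoter: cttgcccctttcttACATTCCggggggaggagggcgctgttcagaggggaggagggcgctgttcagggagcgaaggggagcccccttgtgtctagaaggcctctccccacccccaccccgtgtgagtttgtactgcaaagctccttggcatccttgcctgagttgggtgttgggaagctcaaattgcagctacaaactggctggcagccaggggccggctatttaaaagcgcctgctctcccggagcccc
The motif is centred 233 bp upstream of the start and 113 bp from the summit, which is base 131 of this run. Of 35116 RefSeq promoters of 300 bases, from 250 before the start to 50 after it, 3.46% held ACATTCC. The table had 10 promoters of 7 of the IGF genes, and IGF2, IGFBP1 and IGFBP7 had no entry. IGFBP5 was the only one of these 7 genes with the TEAD motif there, and none held the AP-1 motif, which 4.95% of all promoters did.

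IGFBP4 (chr17:40443450-40457725, plus strand), whose product is cut by the protease PAPPA to release IGF, had 2 peaks 393 bp apart, 28515 and 28908 bp past its end and 42790 and 43183 bp from its TSS. Both summits are in an intron of TNS4, which encodes the focal adhesion protein tensin 4 and whose nearest TSS is 5365 and 5758 bp away. The first had a signal of 30.2, the second lowest of the 30, with a RUNX motif, an E-box (CAGATG) and a CATTCC core. The second had 64.1 and held the TEAD motif, 13 bp from the summit.

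IGFBP6 (chr12:53097436-53102345, plus strand), whose product binds IGF2 in preference to IGF1, had 4 peaks, of which 2 were in the gene. The first of these, with a signal of 63.0, had its summit 27 bp past the first base of IGFBP6-203 and 204 bp before the start of the canonical transcript IGFBP6-201, in the UTR of the former. The other, in an intron 2037 bp from the 5′ end, had a signal of 39.4. It held the TEAD motif 70 bp and the AP-1 motif 40 bp from the summit, and it also had a RUNX motif 10 bp from it. The peaks outside the gene were 48855 and 30007 bp upstream with signals of 92.6 and 35.8, and both held the TEAD motif, 31 and 11 bp from the summit. Both are close to other genes. The first is in an intron of TNS2, which encodes tensin 2, 368 bp from a TSS of that gene, and the other in an intron of SPRYD3, 1070 bp from its nearest TSS. Of the 4 IGFBP6 peaks, 3 thus held the TEAD motif.

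IGFBP7 (chr4:57030773-57110385, minus strand) encodes a secreted protein that binds IGFs more weakly than the other family members and is deposited in basement membranes and vessel walls. It had the most peaks of the 10 genes. With overlapping peaks counted separately, 99 of the 20033 protein-coding genes, IGFBP7 included, had at least 13. There were 8 in introns, 4 upstream and 1 downstream of the gene. The upstream peaks were 44062, 26160, 4868 and 845 bp from the 5′ end, with signals of 46.0, 91.6, 66.9 and 53.3. All 4 are in introns of IGFBP7-AS1, an antisense lncRNA gene, and the last is also in an exon of the lncRNA gene ENSG00000287369. The first intronic peak, 677 bp past the TSS, had a signal of 48.7, and the next, 8171 bp past it, had 58.2. The peaks 845 bp before and 677 bp past the TSS were thus below the median of the 30, and neither held ACATTCC, although both had a CATTCC core within 10 bp of the summit, centred 9.5 bp and 8.5 bp from it.

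The strongest IGFBP7 peaks were farther into the gene. With a signal of 284 and rank 876, the peak 28900 bp from the 5′ end was the second strongest of the 30. It was followed by the peak 32701 bp from the 5′ end with 162 and rank 2895, and by the one at 44921 bp with 141 and rank 3650. The first of these holds the 2 TEAD motifs shown above, a number that 382 peaks of the list (1.81%) reached and no other of the 30 did. The second holds 1 TEAD motif 23 bp from its summit, and the third none, but an AP-1 motif 20 bp from its summit. The third is also 139 bp past the start of IGFBP7-202, a transcript with no defined coding sequence. A peak with a signal of 54.2 was 35474 bp from the 5′ end.

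Next to 2 of these strong summits the list holds a weaker one in an overlapping interval. The peak with 284 shares 214 bp with a peak of signal 31.1 whose summit is 210 bp away, and the peak with 141 shares 129 bp with a peak of signal 8.95 whose summit is 200 bp away. The latter had the lowest signal of the 30, rank 20847 in the list and a −log10 q-value of 0.28, below the usual threshold, though its IDR score was 1000. Counting each pair once gave 28 peaks at the IGF genes.

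The last IGFBP7 peak was 7458 bp past the gene's end, 87070 bp from its 5′ end, with a signal of 73.9 and the TEAD motif 7 bp from the summit. It is in a non-coding exon of a transcript of POLR2B, the gene of the second largest subunit of RNA polymerase II, 88 bp from the nearest TSS of that gene. This TSS can be that of any annotated transcript, so the distance does not place the peak at the main POLR2B promoter. Of the 13 IGFBP7 peaks, 5 were above the median signal of the list and 4 held the TEAD motif, the fourth being the one 44062 bp upstream with the motif centred 1 bp from its summit.

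The 30 peaks and the whole list were then described by 5 motifs, read in either orientation at up to 100 bp from each summit. The TEAD motif ACATTCC was in 10 of 30 peaks (33.3%, Wilson 95% interval 19.2 to 51.2) and in 23% of the list. With a distance of 10 kb in place of 50 kb, 15.8% of the 19 remaining peaks held it, so the direction against the list turned. Over the 25 peaks whose nearest protein-coding TSS was that of an IGF gene, 24% held ACATTCC, close to the list. The core CATTCC, which every ACATTCC contains, was in 18 (60%, 42.3 to 75.4) and in 46.8% of the list. The AP-1 motif was in 4 (13.3%, 5.31 to 29.7) and in 25.4% of the list. The RUNX motif, searched only as TGTGGTT, was in 5 (16.7%, 7.34 to 33.6) and in 9.53% of the list. The E-box, searched only as CAGATG, was in 6 (20%, 9.51 to 37.3) and in 16.7% of the list. For each of the 5 motifs the share of the list lies inside the interval of the members, so no difference was detectable with 30 peaks. The intervals cover counting error only and take peaks as independent, which neighbouring peaks are not. Neither ACATTCC nor AP-1 was found in 17 of the 30, against 56.1% of the list.

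Peaks with the TEAD motif had a median signal of 69.3 at the IGF genes and those without it 57.7. In the list these medians were 82.2 and 64.6. By gene, the TEAD motif was in 4 of 13 peaks at IGFBP7, 3 of 4 at IGFBP6 and 0 of 7 at IGF1R. At each of IGF2, IGFBP4 and IGFBP5 it was in 1 of 2, and in the whole list in 23%. With so few peaks per gene, a difference between genes was not tested.

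The rule stops at 50 kb from a TSS. The farthest peak inside this limit was that of IGFBP6, 48855 bp upstream, with a signal of 92.6. Leaving aside the IGFBP5 peak that lies 53839 bp from IGFBP2, the closest outside it were the summit 56724 bp from IGFBP3 and a summit 58306 bp upstream of IGF1. The latter peak, described because it is next to the limit and chosen after its value was seen, had a signal of 542, rank 104 in the list and higher than that of each of the 30 assigned peaks. IGF1 was its nearest protein-coding gene, and no annotated gene covered its summit. It held the TEAD motif, on the minus strand and 11 bp from the summit, shown in capitals in the 201 bases around it (hg38, plus strand).
IGF1 upstream, chr12:102539950-102540150: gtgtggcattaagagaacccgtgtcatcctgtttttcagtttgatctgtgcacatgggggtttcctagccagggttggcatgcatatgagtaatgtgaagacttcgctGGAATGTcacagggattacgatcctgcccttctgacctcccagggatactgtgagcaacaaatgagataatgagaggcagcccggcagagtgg
The count of 0 for IGF1 thus holds for the distance of 50 kb and not for 100 kb.

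The other genes of the IGF pathway were taken from a list of 21 genes. By the same rule, 16 had at least 1 peak, where 56.2% of all protein-coding genes did, and 7 had a summit within 2500 bp of a TSS, where 16.6% of all did. Their medians were 2 peaks and 1.41 peaks per 100 kb, beside 1 and 0.666 over all protein-coding genes. Peaks were found at 2 of 3 related receptors, at none of 1 further ligand, at 6 of 7 genes for complex partners and proteases of the binding proteins or their inhibitors, at 4 of 6 receptor substrates and adaptors, at all 3 genes for IGF2 mRNA-binding proteins and at IGFBPL1, a relative of the binding proteins. The 5 genes without a peak were the receptor IGF2R, which clears IGF2, the hormone gene INS, the protease PAPPA2, the substrate IRS4 and the adaptor GRB10. The highest signals were at PAPPA, the protease that cuts IGFBP4, with 366 for the strongest of its 5 peaks, at IGF2BP2 with 336 for the strongest of its 10, and at STC2, an inhibitor of PAPPA, with 264 for its single peak. IGF2BP2 had 3.63 peaks per 100 kb, close to the 3.94 of IGFBP6, and without a replicate error these densities cannot be put in order. Both were below the 8.98 of IGFBP7.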

How the data were processed

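TEAD4 ChIP-seq was made by the authors from 3 replicates of DMSO-treated LX-2 cells with 2 inputs. Per their methods, reads were mapped to hg38 with Chromap, and peaks were called and compared with the ENCODE IDR pipeline on replicates 1 and 3. The peak caller is not given in the sources used here, and the name of the deposited list states an IDR cut of 0.01. The deposited list of 21113 peaks gives, for both replicates together, an IDR score, a signal value, a −log10 q-value and a summit per peak. These column meanings were read from the layout of the deposited list. The summit is the start plus the last column.

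All intervals ended inside the hg38 chromosomes, and 4 summits lay outside their own interval. Genes and TSSs came from GENCODE release 44, and the rule was run in the same way on all 20033 protein-coding genes. Motifs were looked for in the hg38 sequence, in either orientation, up to 100 bp from each summit, and promoters came from RefSeq (GRCh38.p14). Shares have Wilson 95% intervals. No test was made, as there is 1 condition and 1 combined list. Depth is unknown, so precision per peak cannot be given.

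The genes and lists were chosen with earlier results of these data known. All 10 genes are named, with the nearest and the strongest peak of each and each peak with a TEAD motif, pathway genes with the 3 highest signals or no peak, and other genes nearest to an assigned peak. Alternatives changed the distance, the TSSs, the set of peaks and the motif. Scripts used Python 3.11.15, numpy 2.4.6, pandas 2.3.3, scipy 1.17.1 and matplotlib 3.10.9, and were tested on simulated data.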

Additional observations from a re-analysis of the deposited data

How the results depend on the processing

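Of 46 alternatives over 6 results, 45 were planned and 1, the core CATTCC in place of ACATTCC, was added after the data were seen. In 37 a count stayed within 1.5 times the reported one, or a share or median within its 95% interval. A distance of 10 kb gave 19 peaks at 4 genes, of which 15.8% held the TEAD motif, below the 23% of the list. Counting the gene body only gave 16 peaks at 3 genes, where 25% of all protein-coding genes had a summit in the gene body. Keeping peaks above the median signal of the list gave 10 peaks at 4 genes, with a summit within 2500 bp of a TSS at 1 gene. The core CATTCC raised the share with a TEAD motif to 60%, against 46.8% of the list. Within these limits, 100 kb gave 39 peaks and a peak at all 10 genes, those with 0 at 50 kb included, 1 TSS per gene gave 27 peaks at 5 genes, and a motif window of 250 bp gave an AP-1 share of 20%, against 33.2% of the list. Except for the gene body, the share of all protein-coding genes with a peak was not computed at these other settings. The 56.2% given above is for 50 kb and can only rise with distance, so these counts of genes have no background. The median signal stayed between 57.2 and 63.0. Without IGFBP7 the share with the TEAD motif was 35.3%, and over the 25 peaks nearest to an IGF gene it was 24%.

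No paired analysis was possible because replicates 1 and 3 are joined in 1 list with no column per sample. Single replicates were therefore not dropped one by one, no spread between them is given, and sample depth enters no value. Assignment by distance does not show which gene a peak acts on.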

Other observations

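Between 50 and 100 kb from the TSSs, further summits lay around 5 of the IGF genes. The matching share of all protein-coding genes was not computed. IGF1 had a second strong peak there, 85634 bp upstream, with a signal of 483, rank 160 in the list and no TEAD motif within 100 bp of its summit. Including the peak 58306 bp upstream, both IGF1 summits in this range ranked above each of the 30 assigned peaks, the strongest of which had rank 475. IGFBP4 had 4 summits in this range, with signals of 125, 38.4, 94.3 and 111, and 1 of them, at 78259 bp, held the TEAD motif. For 3 of the 4 the nearest protein-coding gene was TNS4, and for the one 98263 bp upstream it was RARA. IGFBP2 had 3, of which 1 is the IGFBP5 peak with a signal of 84.7, and the others, with 55.1 and 35.5, were nearest to RPL37A. These distances were looked at after the values within 50 kb were known.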
